A study of Mus musculus with 6 samples.

Results

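The COPII coat and the machinery that exports procollagen from the endoplasmic reticulum (ER) were examined in sorted mouse mammary tumor cells. The set was chosen by gene symbol and holds 10 genes of the 41388 in the count tables: the small GTPase gene Sar1a, the coat genes Sec23a, Sec23b, Sec24c, Sec24d and Sec31a, Mia3 (TANGO1), the cargo receptor gene Lman1, and the transcription factor genes Creb3l1 and Creb3l2. All 10 passed the filter of more than 1 CPM (counts scaled to library size) in at least 3 samples, as did 12192 genes in all. RNA-seq compared 3 samples of CD24+CD90+CD45- cells, called tumor-initiating cells (TICs), with 3 samples of CD45- tumor cells outside that gate, called non-CD24+CD90+ cells. Both came from 12-week-old female mice of the transgenic FVB/N MMTV-PyMT strain, in which the polyoma middle T antigen is driven by a mouse mammary tumor virus promoter, chiefly in mammary epithelium. Each sample pooled the RNA of 4 sorts of tumors from 4 mice, and the samples of a group were biological replicates. Which TIC sample came from the same mice as which non-CD24+CD90+ sample is not given in the labels. The labels say only that a sample held TICs or primary cells, and the series text describes the second group as cells without either marker, whereas the study's methods put single-positive cells in it too.

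Total counts per sample ranged from 6781239 to 9100552, at which 3 counts correspond to 0.33 to 0.44 CPM. All values below are CPM normalized with edgeR's TMM factors. Luminal epithelial markers were expressed in both groups, which does not tell tumor cells from normal epithelium. The 12 genes of this list summed to 7217 to 7551 CPM in non-CD24+CD90+ cells and to 4952 to 5837 CPM in TICs. All 12 had a negative log2 fold change, 0 were called in exactTest (2 at an unadjusted p below 0.05) or the quasi-likelihood test, and 2 were lower in DESeq2. As a background for this and the next lists, exactTest called 1.36% of all genes tested higher and 0.189% lower in TICs. An unadjusted p below 0.05 was reached by 7.85%. In either direction, the quasi-likelihood test called 0.41% and DESeq2 2.58%. Basal or myoepithelial genes (7 tested, 0 called by any of these tests, 1 at an unadjusted p below 0.05) summed to 806 to 1370 CPM and 638 to 1083 CPM. Epcam, a surface marker of epithelium, had at least 8454 counts in every sample. Fibroblast genes (11 listed, 9 tested, 4 higher in TICs in exactTest and in DESeq2 and 1 in the quasi-likelihood test) summed to 1329 to 1655 CPM in non-CD24+CD90+ cells and 2150 to 4050 CPM in TICs. Pericyte and smooth muscle genes (10 tested, 1 higher in each test) summed to 543 to 678 CPM and 965 to 1467 CPM. Endothelial genes (10 tested, 0 called by any of these tests, 5 at an unadjusted p below 0.05) summed to 202 to 212 CPM and 257 to 840 CPM. Among leukocyte genes (10 listed, 4 tested, Lyz2 higher in exactTest and DESeq2 and not called by the quasi-likelihood test) the sums were 16.7 to 38.0 CPM and 32.6 to 98.4 CPM, and Ptprc, which encodes CD45, had 33 counts in 1 non-CD24+CD90+ sample and 0 counts in the other 5. Of 6 adipocyte genes only Fabp4, which endothelium also expresses, was tested, and it was higher in TICs in all 3 tests (log2 fold change 2.75). The adipocyte sums were 56.5 to 137 CPM and 192 to 1225 CPM, while Adipoq and Plin1 were at 0 in all samples. In such sorted bulk samples, fewer cells of a type and less RNA per cell cannot be told apart.

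COPII vesicles carry newly made proteins from the ER towards the Golgi. The GTPase SAR1 inserts into the ER membrane and recruits SEC23 and SEC24, which form the inner coat and select cargo, and SEC13 and SEC31 then assemble the outer cage. Fibrillar procollagen is longer than an ordinary COPII vesicle, and its export needs TANGO1, a transmembrane protein at ER exit sites that binds cargo in the lumen and the coat in the cytosol. LMAN1 is a mannose-binding lectin that carries glycoproteins such as coagulation factors. CREB3L1 (OASIS) and CREB3L2 (BBF2H7) are ER-anchored transcription factors that are released by proteolysis, and Sec23a is a known target of CREB3L2 in cartilage.

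The promoter windows of the members were searched on both strands for 4 elements bound by factors of the ER stress response or by CREB-type factors, and for the letters CCAAT and CCACG that make up the ER stress response element. RefSeq windows (GRCm38.p6) of 300 bases, from 250 before to 50 after a start site, were at hand for 8 of the 10 genes. The letters TGACGTG, the core of the unfolded protein response element, were present in 3 of the members' 10 windows, 1 each of Sec23a, Sec24d and Mia3. Of all 32851 windows, 2.01% held these letters. The ER stress response elements ERSE and ERSE-II and the palindromic cAMP response element (TGACGTCA) were found in 0 of the members' 10 windows and in 0.119%, 0.0365% and 1.79% of all windows. TGACGTG and TGACGTCA differ after 6 shared letters and exclude each other at one place, whereas the reverse strand of TGACGTG can share CACG with the end of either ER stress response element. The short letters CCACG were in 6 and CCAAT in 5 of the members' 10 windows, against 32.8% and 37.4% of all windows. The 3 TGACGTG sites are shown because this was the one of the 4 whole elements that the members held, with the motif in capitals and 10 bases on each side, on the strand of the gene.
Sec23a, chr12:59011995-59012021, minus strand, 7 to 13 bases into the RefSeq transcript: tcctccccttTGACGTGgcagaggcgg
Sec24d, chr3:123267460-123267486, plus strand, 26 to 20 bases before the RefSeq start: cccgggcgccTGACGTGgcactagcaa
Mia3, chr1:183369635-183369661, minus strand, 86 to 80 bases before the RefSeq start: gagcccttgcTGACGTGtcactcgcag
A match is a description of the letters in a window. The GENCODE start of Sec24d lies upstream of its RefSeq start, and by GENCODE the site is inside the gene. In the RNA data the 3 genes with the letters had log2 fold changes of 1.40, 0.18 and 0.20 in TICs, none of which passed the test. Members whose windows lacked the letters ranged from −0.15 (Sec23b) to 0.29 (Sec24c). A link between letters and change was not tested.

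The first question was whether genes of the export machinery differed between the sorted groups. In edgeR's exactTest, the test of the study's methods, 0 of the 10 had an adjusted p below 0.1, and the smallest among them was 0.904. Of all genes tested, 1.55% (189) were called, 1.36% higher and 0.189% lower in TICs. At an unadjusted p-value below 0.05 there were also 0 of the 10, against 7.85% of all genes, and both edgeR's quasi-likelihood test and DESeq2 called 0 (0.41% and 2.58% of all genes). In 0 of the 10 did the groups separate, whereas 15.2% of all genes had groups that did not overlap (every TIC sample above in 7.69% and below in 7.55%). Of the 10, 6 had a positive and 4 a negative log2 fold change, with a median of 0.12 beside −0.01 over all genes tested. The lack of a call does not show equal expression, and the 95% intervals of the log2 fold changes say how large a change the data allow. For Sar1a, Sec31a, Mia3, Lman1 and Creb3l2 the interval held neither a 2-fold rise nor a 2-fold fall. For the other 5 at least one of these remained possible. The intervals treat each gene's estimated dispersion as known, although it was partly shared across genes, and so may be too narrow. Sec31a, for example, spread from 38.9 to 137 CPM in TICs.

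**Figure D1:**
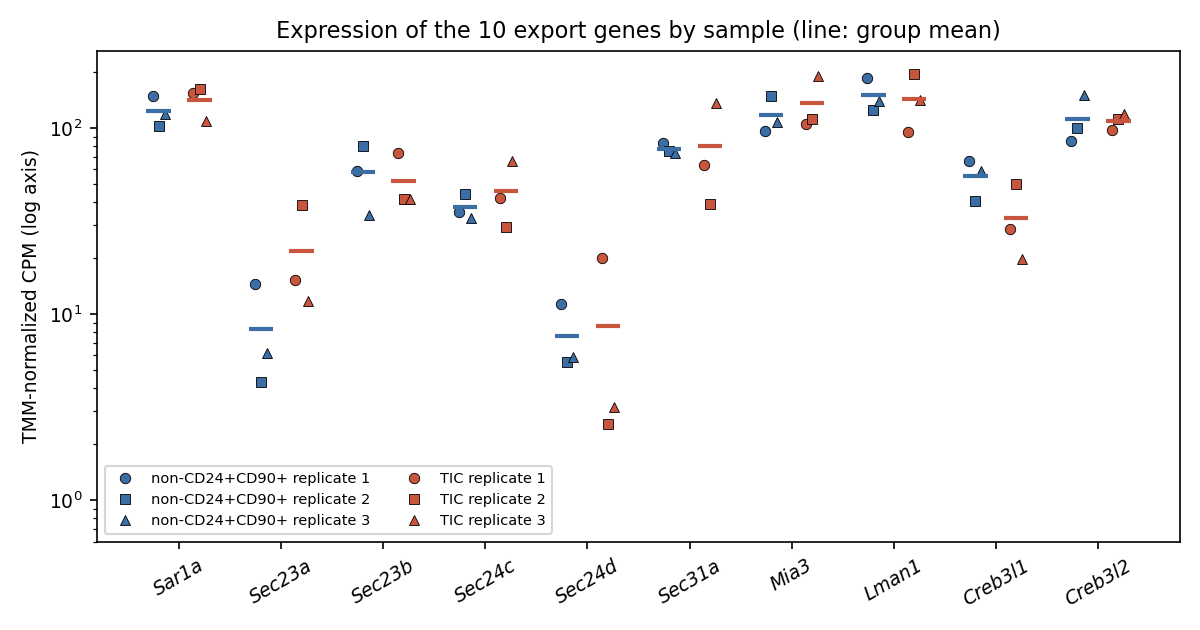
TMM-normalized CPM (log axis) of the 10 export genes in each of the 3 non-CD24+CD90+ samples (blue) and 3 TIC samples (red), with the group mean as a line and the symbol giving the replicate. The groups overlap in all 10 genes, and Sec23a and Sec24d are the lowest and most scattered.

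Sar1a (ENSMUSG00000020088, chromosome 10 of GRCm38, 61680299 to 61693297) encodes the GTPase that starts coat assembly. It was at 148, 103 and 119 CPM in non-CD24+CD90+ cells and at 153, 162 and 109 CPM in TICs. The third TIC sample lay inside the range of the other group, and the highest of the 6 samples was 1.57 times the lowest, the smallest such range among the 10 genes. The change on the log2 scale was 0.20 (standard error, SE, 0.32), with a 95% interval from −0.44 to 0.83, that is 0.738-fold to 1.78-fold. Its paralog Sar1b had 34, 35 and 31 counts in non-CD24+CD90+ cells and 58, 5 and 2 counts in TICs. Sar1a gave 96.0% to 99.8% of the counts of both genes in every sample. The mean log2 ratio of Sar1a to Sar1b differed by 2.21 (exact two-sided permutation p = 0.4, adjusted p = 0.533 over 4 pairs). This difference was 3.41 without TIC replicate 1, 1.71 without TIC replicate 2 and 1.52 without TIC replicate 3. With 5 instead of 0.5 added to each count it was 1.57.

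SEC23 activates the GTPase of SAR1 and links inner and outer coat, and mice have a pair of genes for it. Sec23a (ENSMUSG00000020986, chromosome 12, 58958383 to 59012017) was at 14.5, 4.31 and 6.15 CPM in non-CD24+CD90+ cells. In TICs it was at 15.2, 38.7 and 11.7 CPM. Of the TIC samples, 2 were above all others, 1 of them by little, and the third fell below the highest non-CD24+CD90+ sample. On the log2 scale the fold change of 1.40 (SE 0.94) was the largest of the set, with an adjusted p of 0.908 in exactTest and a 95% interval from −0.44 to 3.24. Without TIC replicate 2 it was 0.70. Sec23a shares 431 exon bases with the antisense gene Gm17529, and the strand setting of the counting is not given in the sources used here.

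Sec23b (ENSMUSG00000027429, chromosome 2, 144556229 to 144590749) was at 58.8, 80.2 and 34.2 CPM in non-CD24+CD90+ cells. In TICs it was at 73.3, 41.7 and 41.6 CPM, all within the range of the other group. Its log2 fold change was −0.15 (SE 0.47). Sec23a gave 19.7%, 5.10% and 15.2% of the counts of this pair in non-CD24+CD90+ cells and 17.1%, 48.1% and 22.0% in TICs. The mean log2 ratio of Sec23a to Sec23b was 1.50 higher in TICs, which an exact two-sided permutation test did not separate from the spread (p = 0.2, adjusted p = 0.533 over 4 pairs, where 3 samples against 3 cannot go below 0.1). Without non-CD24+CD90+ replicate 2 this difference was 0.84, and without TIC replicate 2 it was 0.85. The sum of both genes was 66.0 ± 23.0 CPM in non-CD24+CD90+ cells and 74.1 ± 18.4 CPM in TICs (SD, n = 3).

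SEC24 proteins hold the cargo-binding sites of the coat. Sec24c (ENSMUSG00000039367, chromosome 14, 20674308 to 20694852) was at 35.3, 44.4 and 32.9 CPM in non-CD24+CD90+ cells and at 42.2, 29.3 and 66.5 CPM in TICs. One TIC sample was above and 1 below all non-CD24+CD90+ samples. Its log2 fold change was 0.29 (SE 0.51), and −0.05 without TIC replicate 3. The gene shares 214 exon bases with the antisense gene 6230400D17Rik.

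Sec24d (ENSMUSG00000039234, chromosome 3, 123267455 to 123365641) was the lowest of the 10 genes per length, with 78, 49 and 41 counts in non-CD24+CD90+ cells and 183, 22 and 24 counts in TICs. These counts were 11.4, 5.56 and 5.86 CPM and 20.1, 2.56 and 3.17 CPM. The TIC samples thus lay on both sides of the other group. Its log2 fold change was 0.18 with an SE of 1.30, and it was −1.39 when TIC replicate 1 was left out. The 95% interval ran from −2.37 to 2.73 and held both a 2-fold rise and a 2-fold fall.

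The paralogs Sec24a and Sec24b also encode cargo-binding subunits. Sec24a was at 49.3, 57.5 and 22.0 CPM in non-CD24+CD90+ cells and at 30.4, 32.2 and 23.9 CPM in TICs. Sec24b was at 96.2, 130 and 83.2 CPM and at 125, 60.6 and 100.3 CPM. All 4 Sec24 genes together gave 191 ± 47 CPM in non-CD24+CD90+ cells and 179 ± 48 CPM in TICs (SD, n = 3; exact two-sided permutation test, p = 0.7). The ratio of Sec24c to Sec24d did not separate the groups either (log2 difference 0.61, exact permutation p = 0.7), and the difference was 0.24 without non-CD24+CD90+ replicate 1, 0.92 without non-CD24+CD90+ replicate 2, 1.56 without TIC replicate 1, 0.35 without TIC replicate 2 and −0.09 without TIC replicate 3.

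SEC31A is the rod of the outer cage. Sec31a (ENSMUSG00000035325, chromosome 5, 100361649 to 100416234) was at 83.2, 74.9 and 72.9 CPM in non-CD24+CD90+ cells and at 63.6, 38.9 and 137 CPM in TICs. The non-CD24+CD90+ samples were close together, while 2 TIC samples lay below and 1 above all of them. The change on the log2 scale was 0.05 (SE 0.45), and −0.57 without TIC replicate 3. Sec31b, the minor paralog, had 0 to 30 counts per sample and did not pass the filter.

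Mia3 (ENSMUSG00000056050, chromosome 1, 183326725 to 183369553) encodes TANGO1, the receptor that loads procollagen at ER exit sites. It was at 96.2, 149 and 107 CPM in non-CD24+CD90+ cells and at 105, 112 and 189 CPM in TICs. One TIC sample was above all others and the remaining 2 lay within the range of non-CD24+CD90+ cells. On the log2 scale the fold change was 0.20 (SE 0.35, adjusted p = 1 in exactTest), with an upper bound of 0.89, or 1.86-fold. Without TIC replicate 3 it was −0.10. Mia2, whose product (cTAGE5) pairs with TANGO1, was at 28.5, 20.0 and 53.5 CPM and at 39.6, 38.0 and 56.7 CPM, a log2 fold change of 0.40 (SE 0.54) that did not pass the test.

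Lman1 (ENSMUSG00000041891, chromosome 18, 65980738 to 66022580) was at 185, 125 and 140 CPM in non-CD24+CD90+ cells and at 95.3, 195 and 141 CPM in TICs. One TIC sample was below, 1 above and 1 inside the range of the other group. Its log2 fold change was −0.06 (SE 0.35), with a 95% interval of 0.598-fold to 1.53-fold. Its cofactor gene Mcfd2 was among the cargo receptors described below and was not called.

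Creb3l1 (ENSMUSG00000027230, chromosome 2, 91982328 to 92024502) encodes a regulator of type I collagen in osteoblasts and fibroblasts. It was at 66.8, 40.3 and 59.1 CPM in non-CD24+CD90+ cells and at 28.7, 50.1 and 19.8 CPM in TICs. Of the TIC samples, 2 were below all non-CD24+CD90+ samples and the third lay between them, so that the groups overlapped. The change on the log2 scale was −0.75 (SE 0.51), the most negative of the 10, with an adjusted p of 0.904 in exactTest. The 95% interval ran from −1.76 to 0.25 and held no 2-fold rise. Over the fits without 1 of the samples, the value stayed between −1.19 and −0.47.

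Creb3l2 (ENSMUSG00000038648, chromosome 6, 37327255 to 37442146) was at 85.2, 100.2 and 150 CPM in non-CD24+CD90+ cells and at 97.5, 112 and 120 CPM in TICs. All TIC samples lay inside the range of the other group, and the log2 fold change was −0.03 (SE 0.34). Creb3l1 gave 44.0%, 28.7% and 28.3% of the counts of the pair in non-CD24+CD90+ cells and 22.7%, 30.9% and 14.2% in TICs, a log2 ratio that differed by −0.84 (exact two-sided permutation p = 0.3, adjusted p = 0.533). Without non-CD24+CD90+ replicate 1 the difference was −0.51, and without TIC replicate 3 it was −0.46. The 5 genes of the CREB3 family summed to 238 ± 33 CPM in non-CD24+CD90+ cells and 219 ± 33 CPM in TICs (SD, n = 3).

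Per kilobase of exon, over the mean of both groups, the order was Sar1a (35.4 CPM per kilobase), Mia3 (28.5), Creb3l1 (17.0), Lman1 (16.6), Creb3l2 (15.2), Sec31a (9.94), Sec23b (8.72), Sec24c (6.64), Sec23a (3.12) and Sec24d (1.28). Each gene's range over the 6 samples overlapped that of the next in this order, so that neighbours did not differ beyond their spread. The ends did: the lowest sample of Sar1a was at 27.5 CPM per kilobase, the highest of Sec31a at 17.3 and the highest of Sec24d at 3.18. The value of Mia3 rests on 4431 exon bases of an annotation (GENCODE M21) that marks the gene as a fragmented locus. The highest sample of a gene was a TIC sample in 7 of the 10 genes: replicate 2 and replicate 3 in 3 genes each and replicate 1 in 1 gene. TICs were 3 of the 6 samples. The share of all genes with their highest sample among TICs was not computed, so this count is a description only. The lowest sample was TIC replicate 2 in 3 genes, TIC replicate 1 in 1 gene and TIC replicate 3 in 1 gene.

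**Figure D2:**
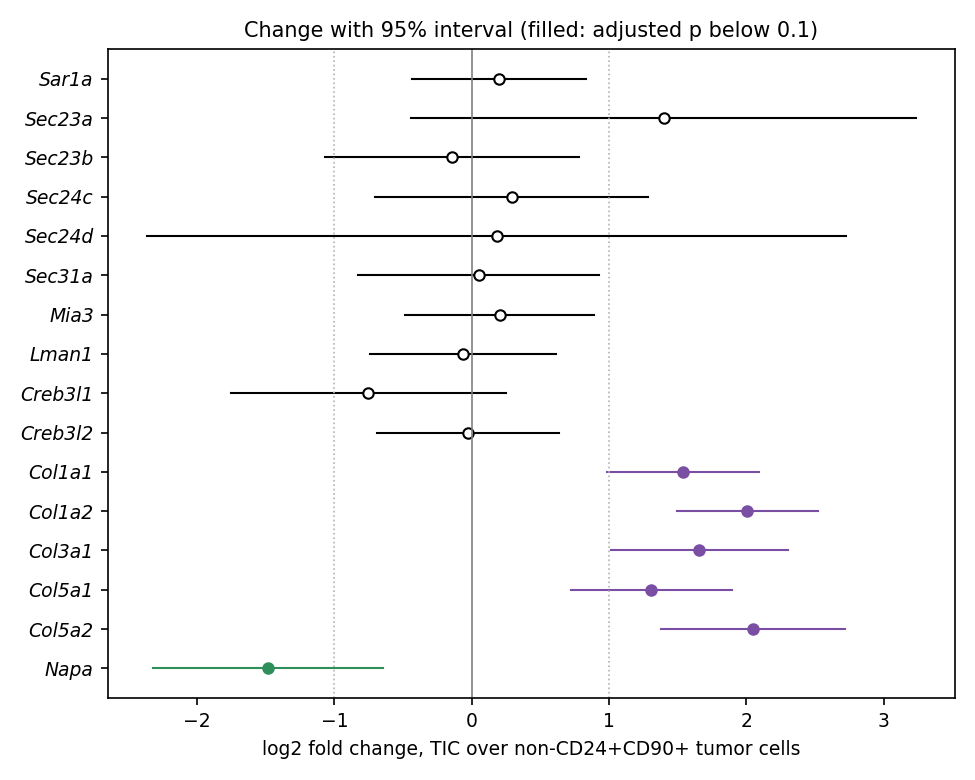
Log2 fold change (TICs over non-CD24+CD90+ cells) with 95% interval for the 10 export genes (black), the 5 called fibrillar collagen genes (purple) and Napa (green). Filled points had an adjusted p-value below 0.1 in exactTest, and dotted lines mark a 2-fold change. All export gene intervals cross 0, while the collagen estimates lie between 1.31 and 2.05.

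The second question was how the machinery compared with fibrillar collagen, a bulky cargo, in the same libraries. Of 11 fibrillar collagen genes, 10 were tested and 5 were higher in TICs (Col1a1, Col1a2, Col3a1, Col5a1 and Col5a2), with a median log2 fold change of 1.21 over the list. The share called higher among all genes tested was 1.36% in exactTest. These collagens had been called in these samples before, so their direction is no independent evidence. Col1a1 was at 1707, 1368 and 1790 CPM in non-CD24+CD90+ cells and at 3706, 4784 and 5665 CPM in TICs. Col5a1 was not called without non-CD24+CD90+ replicate 1 (adjusted p = 0.103) or replicate 3 (adjusted p = 0.126 in exactTest), and the other 4 were called in each fit that left out a sample.

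Summed over the 10 export genes, CPM were 784, 727 and 728 in non-CD24+CD90+ cells and 694, 782 and 838 in TICs. The TIC samples lay on both sides of the others, and the mean log2 difference was 0.04 (exact two-sided permutation p = 0.7). The 4 genes Sar1a, Lman1, Mia3 and Creb3l2, made up 65.0% to 74.2% of this sum. The fibrillar collagens summed to 2954, 2780 and 3045 CPM in non-CD24+CD90+ cells and to 7375, 9285 and 9767 CPM in TICs. Col1a1 and Col1a2 held 73.2% to 84.5% of it.

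For each CPM of export genes there were 3.77, 3.83 and 4.18 CPM of fibrillar collagen in non-CD24+CD90+ cells and 10.6, 11.9 and 11.7 CPM in TICs. The groups did not overlap, with means of 3.93 ± 0.23 and 11.4 ± 0.7 (SD, n = 3), a 2.90-fold difference or 1.54 on the log2 scale (exact two-sided permutation p = 0.1, the smallest that 3 samples against 3 allow). As a mean of log2 CPM over genes, which gives minor collagens equal weight, the difference was 0.67. On the log2 scale the collagen sum alone differed by 1.58 and the export gene sum by 0.04. The ratio thus restates a collagen rise already called in these samples, and its p-value is no independent evidence. Taken gene by gene, collagen per export gene was higher in every TIC sample for 8 of the 10, by 2.56-fold for Sec24c to 5.31-fold for Creb3l1 (exact two-sided permutation p = 0.1, adjusted p = 0.125 over 10 genes that share the collagen sum). The groups overlapped for Sec24d, with a 3.93-fold difference (exact permutation p = 0.3), and for Sec23a, with a 1.14-fold difference (exact permutation p = 0.8). The collagen sum alone was 2.99-fold higher in TICs, so a gene with little change gives a ratio near this by construction. The count of 8 genes is therefore no separate result about the export genes. The summed fibroblast, pericyte and endothelial genes given above were also higher in each TIC sample than in each non-CD24+CD90+ sample. So was the adipocyte sum, of whose genes only Fabp4, also expressed by endothelium, passed the filter. The luminal sum was lower in each TIC sample. The part of these sums in this ratio was not tested.

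**Figure D3:**
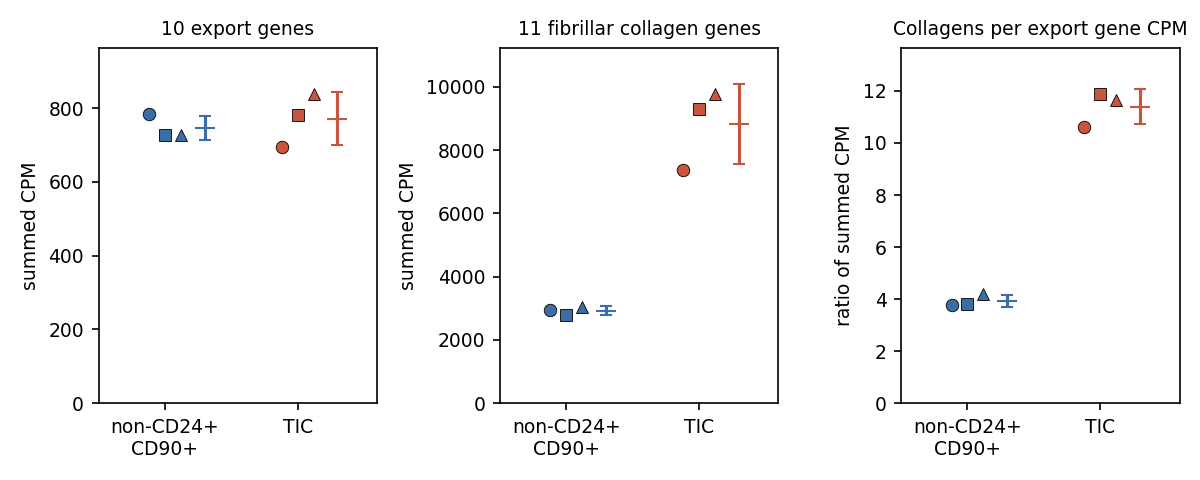
Summed CPM of the 10 export genes (left), of the 11 fibrillar collagen genes (middle) and their ratio (right) in each sample, with the group mean and SD beside the points and axes starting at 0. Export gene sums overlap between the groups, whereas the ratio is 3.77 to 4.18 in non-CD24+CD90+ cells and 10.6 to 11.9 in TICs.

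The neighbouring steps of the pathway were then counted from lists. Over all genes tested, exactTest called 1.36% higher and 0.189% lower in TICs, and 7.85% had an unadjusted p below 0.05. Among 13 other COPII genes, 12 were tested and 0 were called by exactTest, the quasi-likelihood test or DESeq2, with a median log2 fold change of −0.21 and 1 gene at an unadjusted p below 0.05. That gene was Sec16b, which encodes a scaffold of ER exit sites and had 0, 9 and 4 counts in non-CD24+CD90+ cells and 115, 23 and 89 counts in TICs. All TIC samples were above the others, but the adjusted p was 0.583 in exactTest (0.0406 unadjusted) and the size rests on few counts. Preb, which encodes the exchange factor that activates SAR1, had the smallest p among the negative values, with a log2 fold change of −0.50 (SE 0.36, adjusted p = 0.918 in exactTest).

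Of 18 partners of procollagen export and of vesicle fusion, 17 were tested and 1 was called. Napa encodes alpha-SNAP, which with the ATPase NSF takes apart SNARE complexes after fusion. It was at 63.9, 102 and 84.0 CPM in non-CD24+CD90+ cells and at 36.7, 25.5 and 26.8 CPM in TICs. Every TIC sample was below every other sample. On the log2 scale the fold change was −1.49 (SE 0.43, adjusted p = 0.0651 in exactTest). Genes lower in TICs made up 0.189% of all genes tested. The quasi-likelihood test gave an adjusted p of 0.205 and DESeq2 0.0452, and leaving out any sample other than TIC replicate 1 moved it to between 0.118 and 0.509. Nsf itself was at 57.1, 42.0 and 60.9 CPM and at 54.5, 94.3 and 98.3 CPM, with a log2 fold change of 0.63 (SE 0.41) that did not pass the test.

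Among 23 cargo receptors and p24 proteins, 20 were tested, and 0 were called by any of the 3 tests or had an unadjusted p below 0.05 in exactTest. The median log2 fold change was −0.21, and 13 of the 20 values were negative. Every TIC sample was above the others in 2 of the 20 genes and below in 4, against 7.69% and 7.55% of all genes tested. Tmed5, a p24 gene, was at 10.5, 24.2 and 20.2 CPM in non-CD24+CD90+ cells and at 33.3, 44.3 and 41.6 CPM in TICs, with no overlap and an adjusted p of 0.728 in exactTest. Kdelr1, a receptor that returns escaped ER proteins, had a log2 fold change of −0.42 (SE 0.29).

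The COPI coat carries proteins back to the ER. All 12 of its listed genes were tested and 0 were called by any of the 3 tests (1 at an unadjusted p below 0.05), with the highest median of the transport lists (0.40). Copb1, which encodes the beta subunit, was at 29.8, 6.58 and 28.6 CPM in non-CD24+CD90+ cells and at 51.1, 50.5 and 92.9 CPM in TICs. The groups did not overlap, and its log2 fold change of 1.58 (SE 0.59) had an adjusted p of 0.297 in exactTest. Arf1, the GTPase of this coat, had a log2 fold change of −0.24.

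The other genes of the CREB3 family and the site proteases that release them gave 0 calls in any of the 3 tests among 4 tested of 5, and 0 at an unadjusted p below 0.05. Mbtps1, the site-1 protease gene, was at 135, 124 and 170 CPM in non-CD24+CD90+ cells and at 164, 174 and 179 CPM in TICs (log2 fold change 0.27, SE 0.30). Creb3l4 had 0 counts in TIC replicate 3 and 64 to 150 counts in the other samples.

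Upstream of export, 21 ER chaperone and stress genes were tested and 0 were called by any of the 3 tests (3 at an unadjusted p below 0.05), with a median log2 fold change of 0.06. Dnajc3, a cochaperone gene, was higher in every TIC sample (log2 fold change 0.70, SE 0.30, adjusted p = 0.428 in exactTest). Creld2, an ER stress gene, was lower in every TIC sample (−1.11, SE 0.47, adjusted p = 0.414), and neither passed. Of 18 collagen-modifying enzymes and chaperones, 17 were tested, with a median of 0.69. In exactTest 1 was higher in TICs (4 at an unadjusted p below 0.05), in the quasi-likelihood test 1 and in DESeq2 3. The shares over all genes tested were 1.36% higher in exactTest and 7.85% at an unadjusted p below 0.05. In either direction they were 0.41% in the quasi-likelihood test and 2.58% in DESeq2. The gene of this list called in exactTest was P3h3, a prolyl 3-hydroxylase family member. It was at 16.5, 9.76 and 30.3 CPM in non-CD24+CD90+ cells and at 104, 116 and 120 CPM in TICs (log2 fold change 2.59, SE 0.45).

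**Figure D4:**
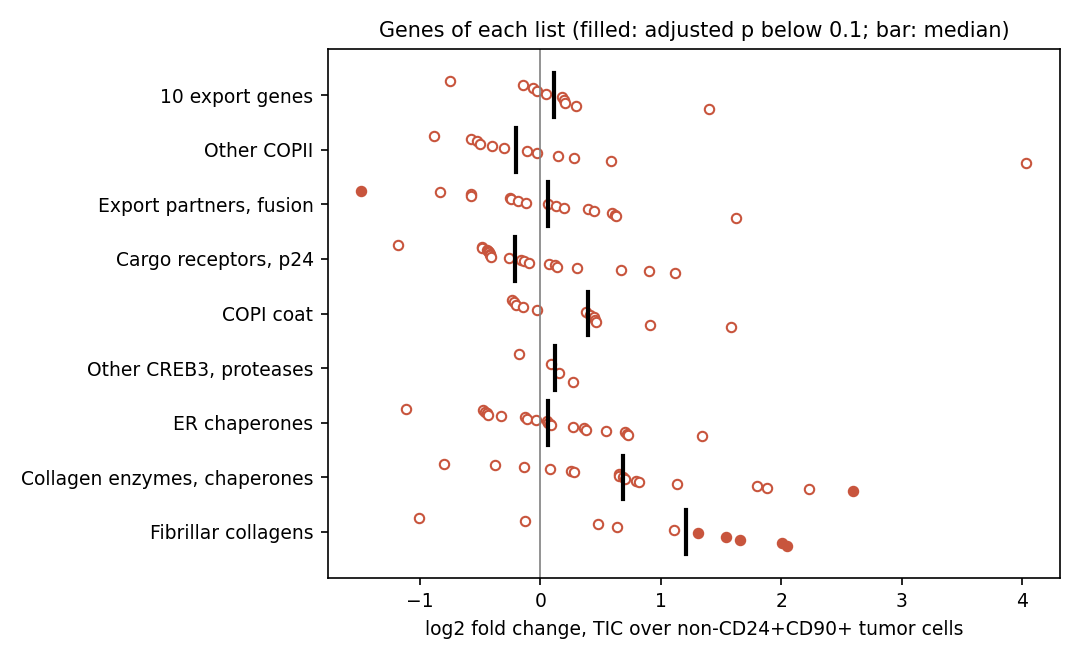
Log2 fold change in TICs of each tested gene (points, filled where the adjusted p-value in exactTest was below 0.1) in the 10 export genes and in 8 related lists, with the median of each list as a bar. Medians of the transport lists lie between −0.21 and 0.40, and those of the collagen enzymes and fibrillar collagens at 0.69 and 1.21.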

How the data were processed

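RNA-seq counts of 6 samples (3 TICs, 3 non-CD24+CD90+ tumor cells) were used. By the authors, reads were trimmed (Trimmomatic 0.32) and aligned (STAR 2.4.0, GRCm38). They removed reads that were not uniquely mapped (SAMtools 1.1) and deposited raw HTSeq counts per Ensembl gene, without normalization; their annotation release is not given in the sources used here. Reads shared by near-identical genes are thereby lost. Symbols came from GENCODE M21 (GRCm38), which named 40254 of 41388 genes.

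All genes above 1 CPM in 3 or more samples were fitted together with edgeR 4.0.16 (R 4.3.3): exactTest and Benjamini-Hochberg adjustment over all 12192 genes, as in the study's methods, with TMM factors and tagwise dispersions, which were chosen here, and a threshold of 0.1. The common dispersion was 0.678. Standard errors came from the negative binomial fit and 95% intervals from them. Ratios of counts had 0.5 added and were compared by exact permutation. Alternatives were the quasi-likelihood test, DESeq2 1.42.0, RLE factors, library size, other filters, trended dispersions, a threshold of 0.05 and each sample left out. Scripts were tested on simulated data. Each sample is a pool of sorts, and depth was 6781239 to 9100552 counts. The intervals rest on the spread between replicates in these samples only, with each gene's dispersion taken as known.

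The members and all lists were chosen with earlier results of these data known. Genes named beside the members were the paralogs Sec24a, Sec24b, Sec31b, Sar1b and Mia2, the called genes of each list, the gene with the smallest p in each direction in each list, a few collagens and cell type markers; Gm17529, 6230400D17Rik, Mcfd2, Lyz2, Fabp4, Adipoq and Plin1 were added after their values were seen.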

Additional observations from a re-analysis of the deposited data

How the results depend on the processing

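No paired analysis was possible because the labels number the samples from 1 to 6 and share no replicate number between the groups. The count of called export genes was 0 under the other tests, normalizations, filters and dispersions tried and with each sample left out, and the lowest adjusted p of any of them in any of these fits was 0.471. Their median log2 fold change ranged from 0.05 to 0.15 over the other settings and from −0.04 to 0.21 over the fits that left out a sample. Values near 0 changed sign: Creb3l2 to 0.0023 with DESeq2, 0.0023 with RLE factors and 0.013 with at least 10 counts in every sample, and Sec31a to −0.030 with library size alone. Leaving out a sample gave Creb3l2 −0.18 to 0.24, Sec31a −0.57 to 0.38, Lman1 −0.34 to 0.18, Sec23b −0.46 to 0.17, Sec24c −0.051 to 0.54, Sec24d −1.39 to 0.62, Mia3 −0.10 to 0.41, Sec24b −0.35 to 0.13 and Creb3l4 −1.06 to 0.43. The cause was not tested. Of the export partners and fusion genes, 0 were called with the quasi-likelihood test, without a filter, with trended dispersions or at 0.05, and 0 to 1 with a sample left out. Of the collagen enzymes and chaperones, 3 were called with DESeq2, 2 with RLE factors, 2 with at least 10 counts in every sample, and 1 to 2 with a sample left out. Fibrillar collagens gave 4 to 6 calls with a sample left out. The collagen to export gene difference was 1.50 to 1.59 with a sample left out and 0.67 as a mean over genes. Depth and spread limit Sec23a and Sec24d most.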
